A study of Mus musculus with 9 samples.

Results

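The 10 genes described here encode the IkB kinase (IKK) complex and the adaptors and kinases that switch it on. The complex itself is made of Ikbkb (IKK-beta), Chuk (IKK-alpha) and Ikbkg (NEMO, the regulatory subunit). The upstream genes are Bcl10, Malt1, Map3k7 (the kinase TAK1), Tab2, Traf2, Traf6 and Map3k14 (the kinase NIK). They were chosen by name, with earlier results of these data known. All 10 are among the 24062 genes of the count table and among the 15369 that passed the filter on low counts.

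RNA was sequenced from mouse embryonic fibroblasts of the C57BL/6 strain, cells grown out of embryo tissue, that had been driven into senescence by gamma-irradiation. Senescent cells have left the cell cycle for good and secrete many proteins. Lentivirus with a short hairpin RNA was added 10 days after irradiation, and the groups are 3 samples each of shRela-1 and shRela-2, independent hairpins against Rela, and 3 samples of shScr, which carries a scrambled hairpin. The product of Rela is p65, a subunit of the NF-kB transcription factors. All 9 samples were thus irradiated and transduced, and unirradiated or untransduced cells were not analysed here. The hairpin sequences were not available here, and nothing in the labels says whether replicates are separate cultures, so p-values measure the spread between these samples only. The shScr titles carry a dataset tag that the shRela titles lack, so a batch that went with the tag and the effect of the scrambled hairpin cannot be told apart.

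IKK is the point where most inflammatory signals enter the NF-kB pathway. Its catalytic subunits phosphorylate the IkB inhibitors, which are then destroyed, and NF-kB dimers that contain p65 move into the nucleus. Traf6 and Traf2, ubiquitin ligase adaptors, act below the receptors for interleukin-1 and for tumour necrosis factor. Tab2 docks the kinase Map3k7 onto ubiquitin chains, and Map3k7 then phosphorylates IKK-beta. Bcl10 and Malt1 form a filament with CARD proteins that recruits the same machinery, and Map3k14 acts on IKK-alpha in the alternative pathway. In senescent fibroblasts NF-kB drives much of the inflammatory secretome.

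Total counts ran from 49774667 to 67963506 per sample. Among the controls, replicate 2 stood apart: its counts differed from those of replicates 1 and 3 by a chi-square of 112 and 109 per degree of freedom, where the other pairs of replicates had 11.9 to 34.4. Rela, the target, stood at 14.1, 13.6 and 13.2 CPM (counts scaled to a common library size with TMM factors) in shRela-1, at 14.8, 13.5 and 13.4 CPM in shRela-2, and at 85.5, 83.2 and 86.8 CPM in shScr. All 12 fibroblast markers reached 1 CPM in each group, with summed levels of 43600 to 44900 CPM in shRela-1, 39500 CPM in each shRela-2 sample and 39100 to 42900 CPM in shScr. Of 15 blood cell markers in the table, led by the myeloid genes Lyz2 and C1qb, 12 reached 1 CPM in each group, and their sums overlapped (467 to 633 CPM in shRela-1, 403 to 620 CPM in shRela-2 and 472 to 699 CPM in shScr). The epithelial list summed to 28 to 40.3 CPM in shRela-1, above 19.1 to 23.9 CPM in shRela-2 and 19 to 25.1 CPM in shScr, carried by Krt19 and Krt18 (at most 18.6 and 16.5 CPM), with Epcam and Cdh1 at most at 0.154 and 0.293 CPM. The neural list, carried by Tubb3, summed to 60.1 to 64.5 CPM in shRela-1, 125 to 136 CPM in shRela-2 and 89.6 to 91 CPM in shScr, with Sox10 and Gfap at most at 0.636 and 0.618 CPM. The endothelial list, led by Egfl7, summed to 7.31 to 8.33 CPM in shRela-1, under 9 to 11.2 CPM in shRela-2 and 8.92 to 10.2 CPM in shScr, with Pecam1 and Cdh5 at most at 0.623 and 0.525 CPM. The muscle list, carried by Des, ran from 279 to 518 CPM in shRela-1, 169 to 295 CPM in shRela-2 and 194 to 371 CPM in shScr. Whether these cell types have a part in the results below was not tested, and in such bulk samples fewer cells that hold a transcript and less of it per cell cannot be told apart.

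With shRela-1, 6 of the 10 genes fell and 1 rose, where 24.7% of all tested genes were called (12.4% fell and 12.3% rose). With shRela-2, 1 fell and 2 rose, where 30.9% of all genes were called (15.4% in each direction). The median log2 fold change of the 10 genes was -0.31 with shRela-1 and -0.06 with shRela-2, beside 0.00 and 0.00 over all genes. The 10 genes were chosen with earlier results of these data known, so these values beside those of all genes are not a test. Only Chuk, which fell, and Map3k7, which rose, were called in the same direction with both hairpins, and Traf6 was called in opposite directions. Calls are an adjusted p under 0.05 by edgeR (quasi-likelihood test, Benjamini-Hochberg over all genes), and both comparisons share the same 3 control samples. Samples were fully apart from shScr in CPM for 7 of the 10 genes with shRela-1, beside 39.6% of all genes. With shRela-2 this held for 6, beside 44.1%, and with both hairpins together for 3, beside 13.2%. The number called with shRela-2 was 6 with the replicate number as a block, a fit that called 44.4% of all genes. DESeq2 called 5, and 4952 over all genes. Only 1 was called when shScr replicate 2 or 3, or shRela-2 replicate 2, was left out. Over all genes, leaving out 1 sample gave 3766 to 4757 called with shRela-2, beside 4742 with all samples.

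**Figure D1:**
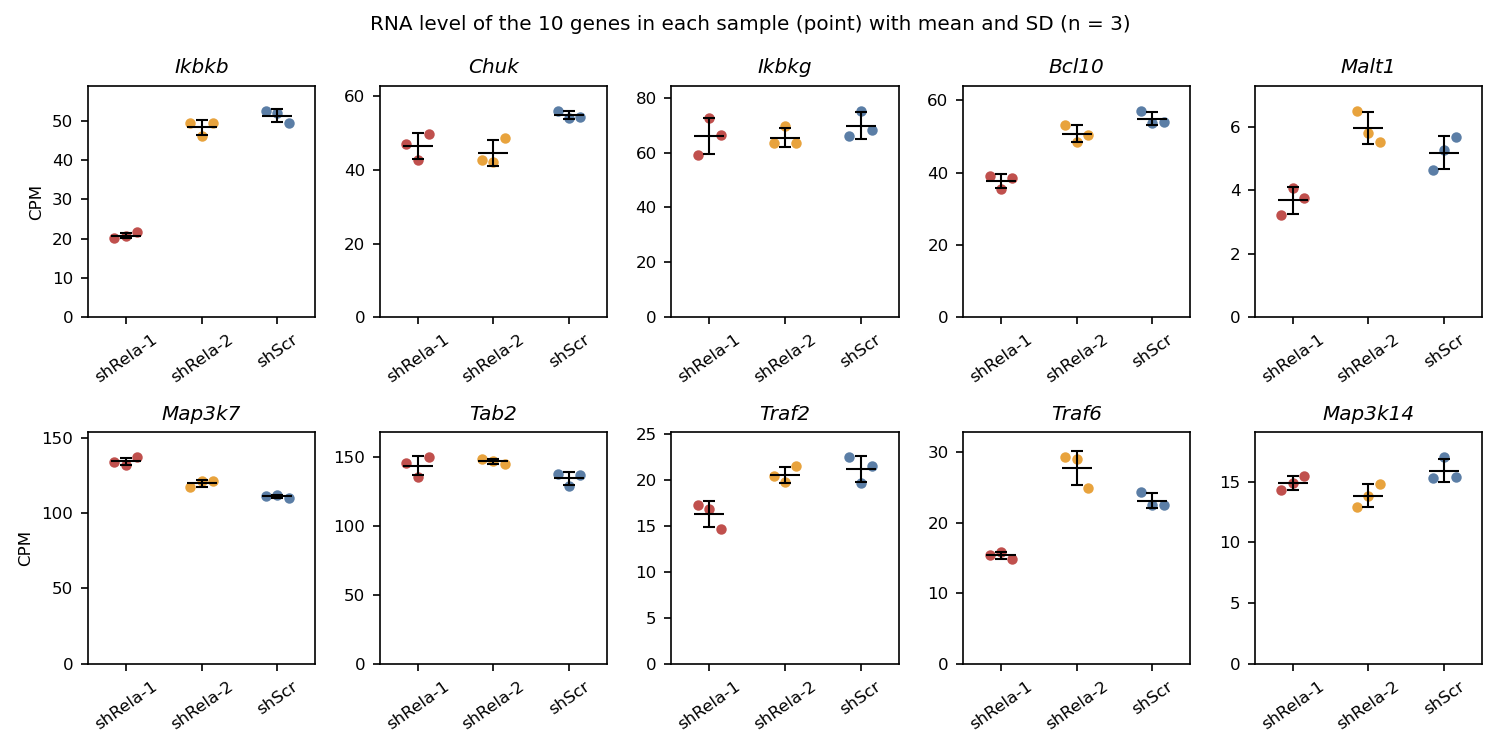
RNA level of each gene in CPM (vertical axes from 0) in the 3 samples of shRela-1, shRela-2 and shScr, each point 1 sample, with the mean and SD as bars. Ikbkb in shRela-1 (20.2 to 21.6 CPM) lies far under both other groups, while Ikbkg overlaps in all 3.

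Ikbkb, the catalytic subunit that does most of the work in the canonical pathway, was the gene that moved furthest among the 10. It lies on chromosome 8, 22659212 to 22706589, minus strand in mm10. It stood at 20.2, 20.6 and 21.6 CPM in shRela-1, at 49.4, 46 and 49.4 CPM in shRela-2, and at 52.5, 52 and 49.3 CPM in shScr. Every shRela-1 sample was under every other sample, and shRela-2 overlapped shScr. The mean with shRela-1 was 40.5% of that in shScr (20.8 ± 0.734 against 51.3 ± 1.71 CPM, SD, n = 3 each). On the log2 scale the change was -1.30 ± 0.047 with shRela-1 (± SE, edgeR adjusted p = 5.68e-08). With shRela-2 it was -0.09 ± 0.046, with a 95% interval from -0.19 to 0.01 (edgeR adjusted p = 0.187). The hairpins themselves differed by 1.22 ± 0.047, with shRela-2 higher (edgeR adjusted p = 3.6e-08). Rela itself stood at 16% and 16.3% of its shScr mean.

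Chuk, the second kinase subunit, fell with both hairpins. It lies on chromosome 19, 44073335 to 44107480, minus strand. Its levels were 47.1, 42.6 and 49.6 CPM in the shRela-1 samples, 42.7, 42.2 and 48.5 CPM in the shRela-2 samples, and 56, 54.1 and 54.4 CPM in shScr, so that all 6 knockdown samples were under all 3 controls. The log2 changes were -0.24 ± 0.064 with shRela-1 and -0.30 ± 0.065 with shRela-2 (edgeR adjusted p = 0.021 and 0.00516). The call with shRela-1 was lost without shScr replicate 1 (adjusted p = 0.0582 by edgeR), shScr replicate 3 (0.0556) or shRela-1 replicate 2 (0.0678). The difference between hairpins, shRela-2 minus shRela-1, was -0.06 with a 95% interval from -0.20 to 0.08.

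Ikbkg, the subunit that binds ubiquitin chains and holds the kinases, was not called with either hairpin. It had 59.2, 72.4 and 66.4 CPM in the shRela-1 samples, 63.3, 69.6 and 63.5 CPM in the shRela-2 samples, and 66, 75.2 and 68.1 CPM in shScr, and the 3 groups overlapped. Its changes were -0.08 (95% interval -0.25 to 0.08) and -0.09 (-0.26 to 0.07) on the log2 scale. Ikbkg is at 74393290 to 74453854 of chromosome X, on the plus strand, and shares 418 exonic bases with G6pdx on the opposite strand. The library kit does not mark strand, so reads from that stretch cannot be assigned between them. G6pdx averaged 58.9 CPM in shRela-1, 48.9 CPM in shRela-2 and 55.9 CPM in shScr, and fell with shRela-2 (-0.19 ± 0.058, edgeR adjusted p = 0.0286).

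The makeup of the complex at the RNA level shifted with shRela-1, a measure that library scaling does not touch. Ikbkb made up 15.9%, 15.2% and 15.7% of the counts of the 3 subunits in shRela-1, 31.8%, 29.1% and 30.6% in shRela-2, and 30.1%, 28.7% and 28.7% in shScr. The shRela-1 samples stood apart from all others, and shRela-2 overlapped shScr. The mean difference from shScr was -13.6 percentage points with shRela-1 (two-sided exact permutation test, p = 0.1, the smallest that 3 against 3 allows) and 1.35 points with shRela-2 (exact p = 0.2). The shares sum to 100, so a lower share of Ikbkb raises the others. Ikbkg took 49.5 ± 3.48% in shRela-1 and 39.6 ± 1.84% in shScr (SD, n = 3 each, exact permutation p = 0.1). Chuk took 34.9 ± 3.1% and 31.2 ± 1.19%, with overlap (exact permutation p = 0.3). Counts were also set per kilobase of transcript, by the length of 1 coding transcript per gene. That length may misplace a gene with transcripts of unequal length, such as Ikbkg. Ikbkb then held 20.2 ± 0.074% in shRela-1, 37.6 ± 1.31% in shRela-2 and 35.6 ± 0.678% in shScr. On that scale shRela-2 no longer overlapped shScr: its samples ran from 36.5% to 39.1%, against 35% to 36.3% in shScr, a difference of 2.05 points (exact permutation p = 0.1, the smallest possible).

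**Figure D2:**
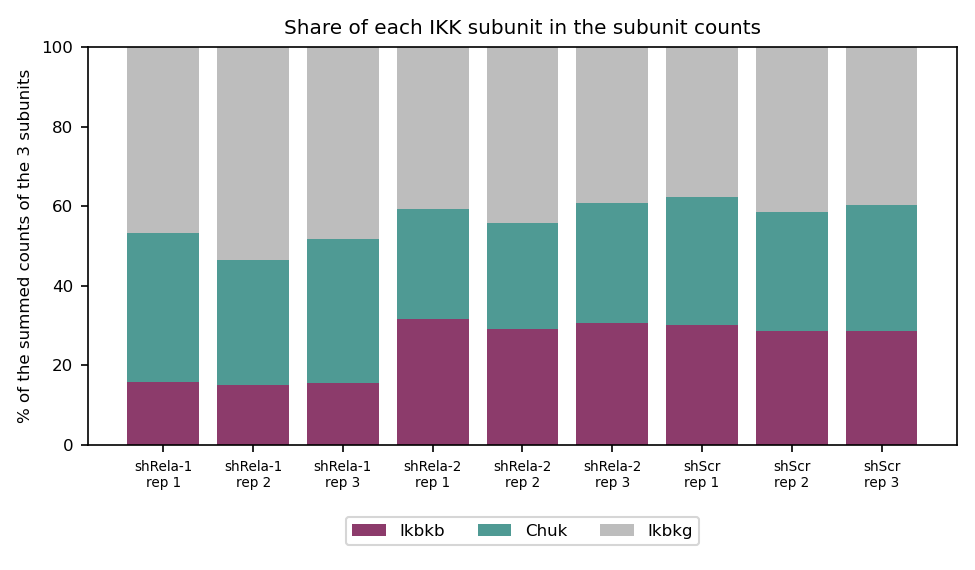
Share of Ikbkb, Chuk and Ikbkg in the summed counts of the 3 subunits (percent, stacked to 100) for each of the 9 samples. The Ikbkb share was 15.2% to 15.9% in shRela-1 and 28.7% or more in every shRela-2 and shScr sample.

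Bcl10 and Malt1, partners in the filament that links CARD receptors to IKK, fell with shRela-1. Bcl10 lies on chromosome 3, 145922804 to 145934356, plus strand. It stood at 39, 35.4 and 38.6 CPM in the shRela-1 samples, 53.2, 48.5 and 50.4 CPM in the shRela-2 samples, and 57.1, 53.7 and 54.1 CPM in shScr. Both hairpin groups were fully under the controls, shRela-1 by far the more. The log2 changes were -0.55 ± 0.050 with shRela-1 and -0.12 ± 0.049 with shRela-2 (edgeR adjusted p = 2.86e-05 and 0.103, the second 0.0148 with the replicate block). The difference of shRela-2 from shRela-1 was 0.43 ± 0.050 (edgeR adjusted p = 6.28e-05).

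Malt1, a protease and the scarcest of the 10 transcripts, had counts of 200 to 261 in shRela-1, 310 to 361 in shRela-2 and 232 to 357 in shScr. Those counts correspond to 3.22, 4.07 and 3.75 CPM in the shRela-1 samples, 6.5, 5.81 and 5.52 CPM in the shRela-2 samples, and 4.63, 5.26 and 5.67 CPM in shScr. The shRela-1 samples were under all controls and the shRela-2 samples overlapped them. Malt1 changed by -0.50 ± 0.12 with shRela-1 (edgeR adjusted p = 0.0137, and 0.0605 without shScr replicate 3). With shRela-2 the value was 0.19 with a 95% interval from -0.07 to 0.46, and the hairpins differed by 0.69 ± 0.12 (edgeR adjusted p = 0.00111). It lies on chromosome 18, 65430938 to 65479067, plus strand.

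Map3k7, which encodes TAK1, was the only one of the 10 genes that rose with shRela-1, and it also rose with shRela-2. It had 134, 132 and 137 CPM in the shRela-1 samples, 117, 121 and 121 CPM in the shRela-2 samples, and 111, 112 and 110 CPM in shScr, with no overlap among the 3 groups. The log2 changes were 0.28 ± 0.033 and 0.11 ± 0.033 (edgeR adjusted p = 1.9e-04 and 0.0296), and the value with shRela-2 was lower than that with shRela-1 by edgeR (-0.17 ± 0.033, adjusted p = 0.00231). The call with shRela-2 was lost without shScr replicate 1 (edgeR adjusted p = 0.066), 2 (0.0603) or 3 (0.094), or without shRela-2 replicate 2 (0.0879) or 3 (0.0815), and with no filter on low counts (0.0523). Map3k7 is at 31964097 to 32023467 of chromosome 4, on the plus strand.

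Tab2, the adaptor that brings TAK1 to ubiquitin chains, was not called with either hairpin. Its levels were 146, 136 and 150 CPM in the shRela-1 samples, 149, 147 and 145 CPM in the shRela-2 samples, and 138, 129 and 137 CPM in shScr. The shRela-2 samples were all above the controls and the shRela-1 samples overlapped them. Such separation, in either direction, held for 44.1% of all genes with shRela-2. The log2 values were 0.10 ± 0.045 and 0.12 ± 0.045 (edgeR adjusted p = 0.143 and 0.061). With the replicate block both passed (edgeR adjusted p = 0.0208 and 0.00366), and with shRela-2 the value also passed by DESeq2 (0.0413), with scaling by library totals (0.0383) and without shRela-1 replicate 2 (0.0467). Tab2 lies on chromosome 10, 7905653 to 7956230, minus strand.

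Traf6, the ligase adaptor below interleukin-1 and Toll-like receptors, moved in opposite directions with the hairpins. It stood at 15.5, 15.8 and 14.9 CPM in shRela-1, at 29.3, 29 and 25 CPM in shRela-2, and at 24.4, 22.6 and 22.5 CPM in shScr. None of the 3 groups overlapped, with shRela-1 lowest and shRela-2 highest. It fell with shRela-1 (-0.59 ± 0.071, edgeR adjusted p = 1.93e-04) and rose with shRela-2 (0.26 ± 0.070, edgeR adjusted p = 0.0157). The rise was lost without shScr replicate 2 (edgeR adjusted p = 0.0614) or 3 (0.063), or without shRela-2 replicate 1 (0.0574) or 2 (0.0665). The hairpins differed by 0.85 ± 0.071 (edgeR adjusted p = 5.8e-06). Traf6 lies on chromosome 2, 101678429 to 101701669, plus strand.

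Traf2, its counterpart below tumour necrosis factor receptors, fell with shRela-1. It had 17.3, 16.9 and 14.7 CPM in the shRela-1 samples, 20.5, 19.8 and 21.5 CPM in the shRela-2 samples, and 22.5, 19.7 and 21.5 CPM in shScr. The shRela-1 samples were under all others, and shRela-2 overlapped shScr. The change with shRela-1 was -0.38 ± 0.077 (edgeR adjusted p = 0.00476), and with shRela-2 it was -0.04 with a 95% interval from -0.21 to 0.13. The hairpins differed by 0.34 ± 0.077 (edgeR adjusted p = 0.00516). Traf2 lies on chromosome 2, 25517982 to 25546940, minus strand.

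Map3k14, the kinase of the alternative pathway, was not called with either hairpin. Its levels were 14.3, 14.9 and 15.5 CPM in the shRela-1 samples, 12.9, 13.8 and 14.8 CPM in the shRela-2 samples, and 15.3, 17 and 15.4 CPM in shScr. The shRela-2 samples were all under the controls, and shRela-1 overlapped them. With shRela-2, 44.1% of all genes were apart from the controls in either direction. The log2 values were -0.09 ± 0.074 and -0.20 ± 0.074 (edgeR adjusted p = 0.408 and 0.0633). With shRela-2 the fall passed with the replicate block (edgeR adjusted p = 0.0152), by DESeq2 (0.0498) and without shRela-2 replicate 3 (0.0381). The gene lies on chromosome 11, 103219762 to 103267472, minus strand, and shares 135 exonic bases with 1700028N14Rik on the same strand.

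**Figure D3:**
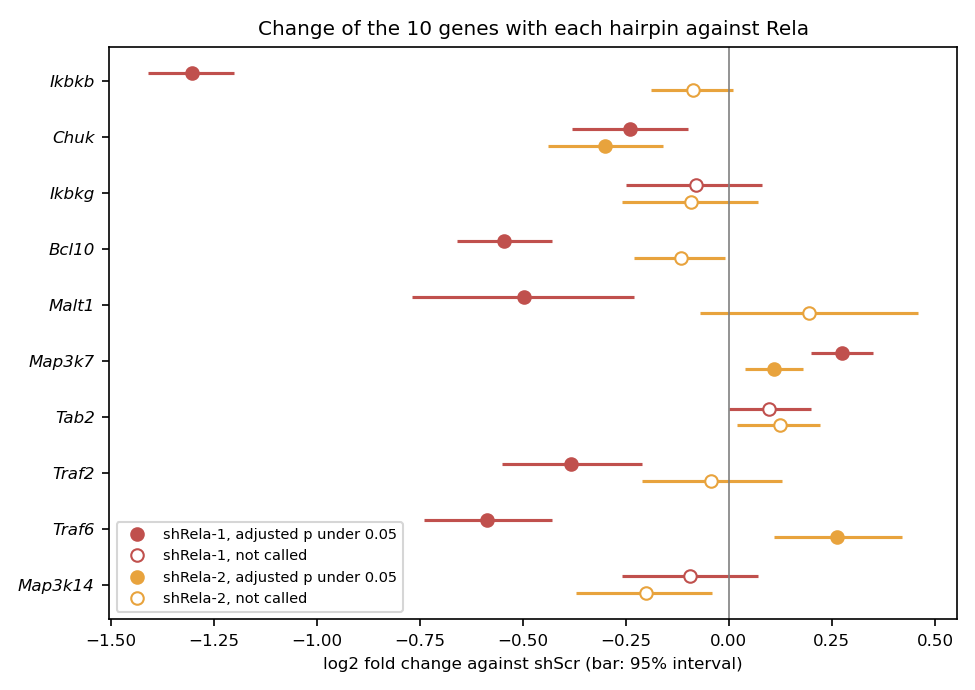
Log2 fold change of each gene against shScr (horizontal axis) with its 95% interval, for shRela-1 (upper mark of each pair) and shRela-2 (lower mark); filled marks passed an adjusted p of 0.05 by edgeR. Ikbkb with shRela-1 stands alone at -1.30, and the hairpins point to opposite sides of 0 for Traf6.

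Between the hairpins, 6 of the 10 genes differed, where 39.9% of all genes did by the same test (20% higher and 19.9% lower with shRela-2). With shRela-2, 5 were higher than with shRela-1 (Ikbkb, Traf6, Malt1, Bcl10 and Traf2) and Map3k7 was lower. The 10 genes had a median difference of 0.18 on the log2 scale, and all genes one of 0.01. The same 6 genes were fully apart between the hairpin groups, where 50.1% of all genes were. Averaged over both hairpins, 4 of the 10 fell (Ikbkb, Bcl10, Chuk and Traf2) and Map3k7 rose, beside 22.8% of all genes called. In that average 9 were called with the replicate block, where 37.5% of all genes were, which added Ikbkg, Tab2, Traf6 and Map3k14 (edgeR adjusted p = 0.0417, 0.0036, 0.011 and 0.0423). Traf2 passed narrowly (-0.21 ± 0.066, edgeR adjusted p = 0.0411) and was lost without shScr replicate 1 (0.157) or 3 (0.132), shRela-1 replicate 2 (0.0508) or 3 (0.062), or shRela-2 replicate 1 (0.0656) or 2 (0.0821). Tab2 was gained without shRela-1 replicate 2 (edgeR adjusted p = 0.0324) and by DESeq2 (0.0392).

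Per kilobase of transcript, the 10 genes spanned a wide range of levels. In shScr the order was Tab2 (30.8 CPM per kilobase), Bcl10 (28.2), Map3k7 (19.6), Chuk (15.7), Ikbkb (14.3), Ikbkg (10.3), Traf2 (6.97), Traf6 and Map3k14 (3.75 each) and Malt1 (0.973). The pair Traf6 and Map3k14 overlapped between samples, and all other neighbours in this order were apart. In shRela-1 Ikbkb stood at 5.81 CPM per kilobase, under Ikbkg (9.72) and overlapping Traf2 (5.34), while Map3k7 (23.7) was above Bcl10 (19.3). In shRela-2 Ikbkb (13.5) stood next to Chuk (12.7), with overlap. These levels use the length of 1 coding transcript per gene, so a gene with transcripts of unequal length, such as Ikbkg, may be misplaced.

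The transcript sequences were examined next, and 5 of the 6 genes that fell with shRela-1 hold one of a pair of related short motifs in their 3' untranslated regions. All motifs of 7 bases that occur in the 3' untranslated regions (sense strand, 1 transcript per gene) of at least 200 of 13768 tested genes, the 10 genes and Rela left out, were ordered by the median log2 fold change of the genes that hold them. Of 14047 motifs, GGTGTAA had the lowest median with shRela-1 and AGGTGTA the next, and they overlap by all but 1 base. Under shRela-2 the lowest was GAAGCTA, and only that motif was kept there. The motifs were thus picked by these same fold changes, and the medians that follow describe them without a test. The sites in Chuk, Bcl10 and Traf2 are shown from GENCODE M21 transcripts in mm10, 5' to 3' in the sense of the gene, with the matched bases in capitals. They lie at chr19:44073825-44073854 (minus strand), chr3:145933468-145933497 (plus) and chr2:25519308-25519337 (minus).
Chuk: atatgtatttaAGGTGTAcatttaataata
Bcl10: tggggcggcgtGGTGTAAatcatggtggtc
Traf2: tgggcaggcttGGTGTAAatgctggggagg

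In all, 5 of the 10 genes (Ikbkb, Chuk, Bcl10, Traf2 and Traf6) hold at least 1 of the pair, against 10.8% of the 13768 other genes. Ikbkb and Chuk hold only AGGTGTA, the second in rank. The pair was picked by the fold changes with shRela-1, and the 10 genes with earlier results known. The share of 10.8% beside them is thus not a test. All 5 genes with a motif fell with shRela-1, with log2 changes from -1.30 to -0.24. Of the other 5 genes, Malt1 fell, Map3k7 rose, and Ikbkg, Tab2 and Map3k14 were not called, with values from -0.50 to 0.28. With shRela-2 the 5 genes that hold the pair ran from -0.30 to 0.26, with Chuk down, Traf6 up and 3 not called. Across the other genes, those with either motif had a median of -0.17 with shRela-1 and those without had 0.02, and 37.5% against 10.2% fell. With shRela-2 the medians were 0.02 and 0.00, and 18.8% against 15.9% fell. Those other genes with either motif also had longer 3' untranslated regions, with a median of 2467 bases against 911. Among the 10 genes, those with a motif had 1050 to 4170 bases and those without had 1263 to 5419. The shRela-2 motif GAAGCTA occurs in Traf2 and Map3k7, neither of which fell with shRela-2. Whether any of these motifs matches a hairpin was not tested.

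**Figure D4:**
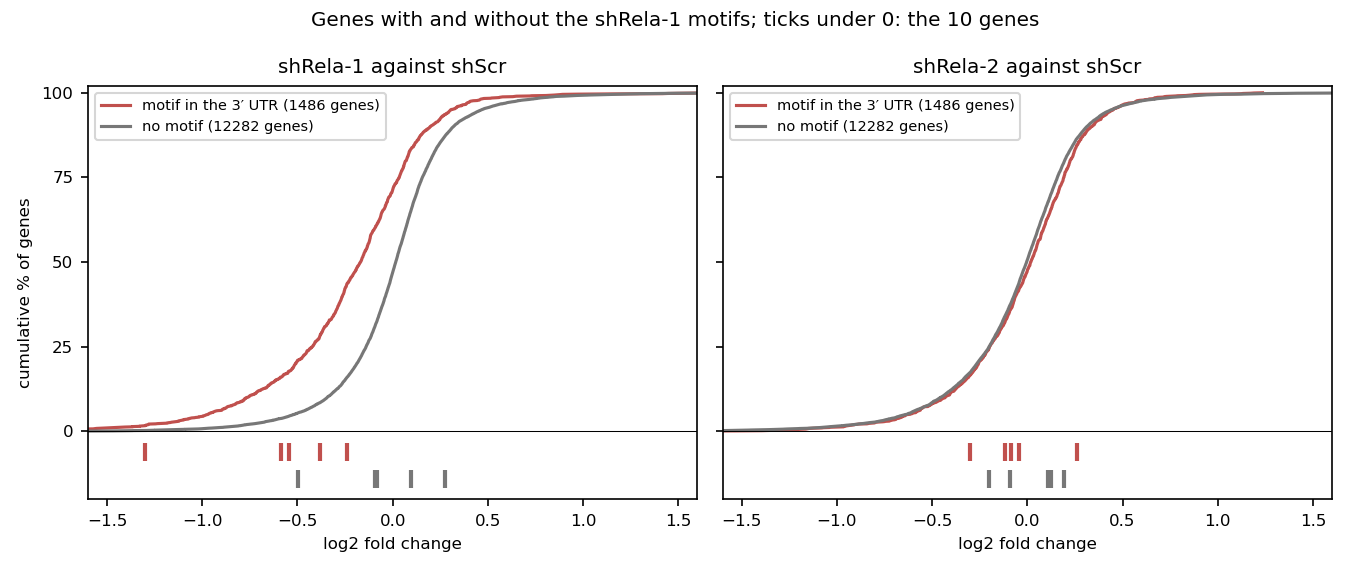
Cumulative share of genes (percent, vertical) by log2 fold change (horizontal; genes beyond the axis are not drawn) for the 1486 genes with, and the 12282 without, either of the shRela-1 motifs in the 3' untranslated region, under each hairpin. The curve of genes with a motif lies to the left under shRela-1 and near the other curve under shRela-2; the ticks under 0 mark the 10 genes, those with a motif in the upper row.

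Promoters were available from RefSeq (GRCm38.p6) for 8 of the 10 genes, not for Ikbkb or Malt1, in 12 windows from 250 bases before to 50 bases after a start. The consensus kB motif, the binding motif of NF-kB, was searched on both strands. It occurs in 4.51% of all 32851 windows and in 1 window each of Bcl10 and Map3k7. These promoters are shown because Bcl10 and Map3k7 went in opposite directions with shRela-1. The 250 bases before the start are printed 5' to 3' on the plus strand, the strand of both genes, with the motif in capitals, which begins 241 bases before the start in Bcl10 and 92 bases before it in Map3k7. In Bcl10 the match is on the plus strand. In Map3k7 it is on the minus strand, so the capitals there are the reverse complement of the matched letters. A match in letters does not show that NF-kB binds there. The windows are chr3:145924012-145924261 and chr4:31963857-31964106. The Bcl10 window lies inside the span given above for that gene (145922804 to 145934356), so it is upstream of the RefSeq start used but not of that whole span.
Bcl10: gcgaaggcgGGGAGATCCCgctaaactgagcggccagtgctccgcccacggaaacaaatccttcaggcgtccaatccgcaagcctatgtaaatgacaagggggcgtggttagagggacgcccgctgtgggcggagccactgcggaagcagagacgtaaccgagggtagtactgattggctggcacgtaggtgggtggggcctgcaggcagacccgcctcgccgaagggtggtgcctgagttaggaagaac
Map3k7: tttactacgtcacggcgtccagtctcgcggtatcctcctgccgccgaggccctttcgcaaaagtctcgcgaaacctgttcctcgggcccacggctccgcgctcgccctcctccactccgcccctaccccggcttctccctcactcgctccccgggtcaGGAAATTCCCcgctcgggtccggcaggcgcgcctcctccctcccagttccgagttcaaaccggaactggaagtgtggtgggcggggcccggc

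The remaining genes of the pathway were taken from 4 lists by role, also chosen with earlier results known, 70 genes of which 69 were tested. With shRela-1, 16 fell and 6 rose (31.9% called, beside 24.7% of all genes). With shRela-2, 18 fell and 11 rose (42% called, beside 30.9%). With the replicate block 44 of the 69 were called with shRela-2, where the same fit called 44.4% of all genes. The list of IKK substrates and NF-kB subunits had the most uniform direction: with shRela-1, 6 of 9 fell and 3 were not called (66.7% called), and with shRela-2, 8 fell and 1 was not called (88.9%). Rela itself is 1 of these 9 and fell in both. Nfkbia, which encodes IkB-alpha, the main substrate of IKK-beta, averaged 22.2 CPM in shRela-1, 19.8 CPM in shRela-2 and 30.6 CPM in shScr (-0.46 ± 0.063 and -0.63 ± 0.063, edgeR adjusted p = 3.87e-04 and 4.59e-05). Nfkb1 (p105 and p50) changed by -0.31 and -0.27, and Relb, the partner of p52, by -0.56 and -0.60 on the log2 scale. Bcl3, a nuclear IkB protein, averaged 9 CPM in shRela-1, 5.26 CPM in shRela-2 and 9.37 CPM in shScr. It was the 1 gene of this list that was called between the hairpins (-0.78 ± 0.25, edgeR adjusted p = 0.0322). That call was lost without shRela-1 replicate 1 (0.114) or 2 (0.0549), or shRela-2 replicate 2 (0.112) or 3 (0.113), and 2 of the list were called with the block or without shRela-1 replicate 3.

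Of 25 receptors and adaptors, 5 fell and 4 rose with shRela-1, which is 36% called beside 24.7% of all genes. With shRela-2, 3 fell and 4 rose, or 28%, near the 30.9% of all genes. Tlr2, a Toll-like receptor that signals through Traf6, fell with both hairpins (-0.44 ± 0.097 and -0.51 ± 0.098, edgeR adjusted p = 0.00827 and 0.00282), and Tnfrsf12a, the TWEAK receptor, and Ticam1, the adaptor TRIF, were higher in the average of both (0.18 ± 0.036 and 0.23 ± 0.051, edgeR adjusted p = 0.00477 and 0.00883). Cd40, which signals through Traf2 and Traf6, stood at 5.77 CPM in shRela-1, 12.5 CPM in shRela-2 and 9.97 CPM in shScr, and the hairpins differed by 1.11 ± 0.16 (edgeR adjusted p = 3.38e-04). Irak2, a kinase-like partner of Traf6, rose with shRela-1 (0.45 ± 0.059, edgeR adjusted p = 3.39e-04) and was at -0.07 with shRela-2. Il1rap, the co-receptor of interleukin-1, differed between the hairpins by -0.77 ± 0.095 (edgeR adjusted p = 9.49e-05), and Traf3, which holds Map3k14 in check, by 0.36 ± 0.055 (4.21e-04). Ltbr, a receptor of the alternative pathway, rose with shRela-2 (0.29 ± 0.043) and Nod1, a sensor of bacterial peptides, fell (-0.34 ± 0.067, edgeR adjusted p = 6.28e-04 and 0.00336). The number called with shRela-1 was 5 without shScr replicate 1 or 2, and the number with shRela-2 was 13 with the replicate block.

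Among ubiquitin ligases, binding partners and kinases, 2 of 19 rose and 1 fell with shRela-1 (15.8% called, beside 24.7% of all genes), and 4 rose and 3 fell with shRela-2 (36.8%, beside 30.9%). Map3k3, a kinase upstream of IKK, moved in opposite directions: it averaged 78.9 CPM in shRela-1, 46.5 CPM in shRela-2 and 69.5 CPM in shScr (0.18 ± 0.036 and -0.58 ± 0.037, edgeR adjusted p = 0.00447 and 3.64e-06). Ikbke, the IKK-related kinase IKK-epsilon, fell with shRela-1 (-0.36 ± 0.057, edgeR adjusted p = 0.00107). With shRela-2 it was also under all controls but not called (-0.16 ± 0.056, edgeR adjusted p = 0.0574). In the average of both hairpins Ikbke fell (-0.26 ± 0.048, edgeR adjusted p = 0.00348). Its relative Tbk1 rose with shRela-2 (0.20 ± 0.051, edgeR adjusted p = 0.0136, lost without shScr replicate 3 at 0.0623 or shRela-2 replicate 2 at 0.0544). Tab1, the activator of TAK1, rose with shRela-2 (0.28 ± 0.068, edgeR adjusted p = 0.00927), and Ube2v1, part of the enzyme that builds the ubiquitin chains, fell (-0.20 ± 0.037, 0.0023). Tank, a scaffold of Tbk1, rose with shRela-1 (0.16 ± 0.044, edgeR adjusted p = 0.0216, lost without shScr replicate 1 at 0.0678 or shRela-1 replicate 3 at 0.0704). With shRela-2 the number called was 14 with the block, 4 without shScr replicate 1, shRela-2 replicate 2 or shRela-2 replicate 3, and 3 without shScr replicate 3.

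Of the 16 genes that restrain the pathway, 4 fell and 12 were not called with shRela-1, or 25% called, at the background of 24.7%. With shRela-2, 4 fell and 3 rose, or 43.8%, beside 30.9% of all genes. Tnfaip3, which encodes the ubiquitin editor A20, stood at 15.6 CPM in shRela-1, 7.2 CPM in shRela-2 and 14.7 CPM in shScr. It fell with shRela-2 (-1.03 ± 0.088, edgeR adjusted p = 1.76e-05), and the hairpins differed by -1.12 ± 0.088 (3.86e-06). Cyld, a deubiquitinase that acts on Traf2, Traf6 and Ikbkg, averaged 26.9 CPM in shRela-1, 44.7 CPM in shRela-2 and 37.4 CPM in shScr. It fell with shRela-1 (-0.48 ± 0.12, edgeR adjusted p = 0.014, or 0.0529 without shScr replicate 2), and the hairpins differed by 0.73 ± 0.12 (5.8e-04). The deubiquitinase Otud7b fell with shRela-1 (-0.24 ± 0.034, edgeR adjusted p = 6.85e-04), and Tnip1, a partner of A20, fell with shRela-2 (-0.33 ± 0.081, 0.0111). Itch, a ligase that works with A20, rose with shRela-2 (0.18 ± 0.036, edgeR adjusted p = 0.00302). The number called with shRela-1 was 2 without shScr replicate 1, 2 or 3 or without shRela-1 replicate 2, and the number with shRela-2 was 4 without shRela-2 replicate 1.

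**Figure D5:**
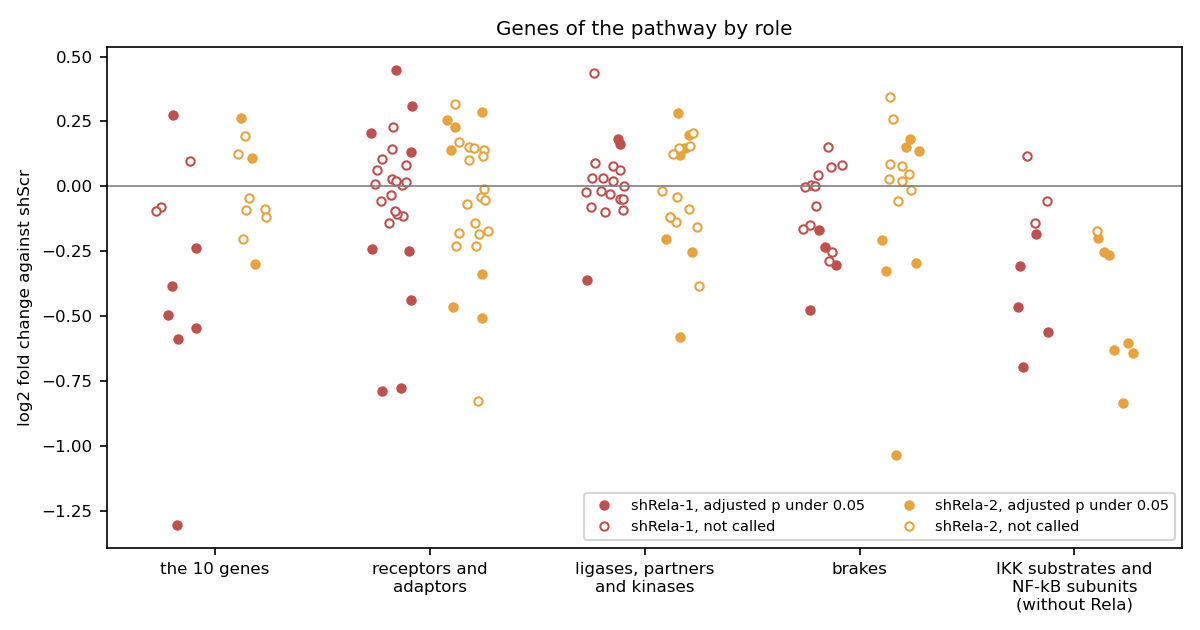
Log2 fold change against shScr (vertical) of the 10 genes and of the other tested genes of the pathway by role, each point 1 gene, with shRela-1 left of shRela-2 in each role; filled points passed an adjusted p of 0.05 by edgeR, and Rela is left out. Ikbkb is the lowest shRela-1 point at -1.30 and Tnfaip3 the lowest shRela-2 point at -1.03.

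Genes whose 9-sample profile was most like that of each IKK subunit were found by the root-mean-square difference of log2 CPM, each profile set to 0 at its shScr mean, over 9140 other genes. These genes were picked as the lowest by this difference, so their place under the median of the 9140 genes was fixed in advance. For Ikbkb they were Golt1b (a difference of 0.075), Hsp90b1 (0.105), Abracl (0.109) and Tmcc3 (0.125), against a median of 0.777 over the 9140 genes. Their log2 changes with shRela-1 ran from -1.30 to -1.18. For Chuk they were Cpeb1 (0.037), Zfp511 (0.057), Selo (0.059) and Zfp280c (0.062), against a median of 0.29. For Ikbkg they were Parn (0.046), Gtf3c6 (0.05), Cxxc5 (0.051) and Ghitm (0.057), against a median of 0.204.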

How the data were processed

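All 9 samples have a column of raw counts by gene symbol, as the authors deposited them. Tools named in the submitters' processing notes are featureCounts 1.4.6 (Subread), TopHat2 2.0.14 and Bowtie2 2.2.6, with the mm10 build. Libraries were made with TruSeq v2, per the labels' protocols. Low counts were more often 2 (7984 values) than 1 (2764 values), so a count may stand for less than 1 fragment, which would inflate counts and the chi-square between replicates; this was not tested.

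The test of the counts was edgeR 4.0.16 (R 4.3.3, filterByExpr, TMM, 1 mean per group, glmQLFit and two-sided glmQLFTest, Benjamini-Hochberg over 15369 genes) and the steps were checked on simulated data. Alternatives were DESeq2 1.42.0, limma 3.58.1 (voom), other scalings, no filter, only the groups compared, a replicate block and leaving out each sample. The block uses replicate numbers from the titles: deviations from group means correlated by 0.189 to 0.415 in the 9 same-numbered pairs and by -0.306 to 0.046 in 18 others. No 2 replicates agreed within sampling noise (a chi-square of 11.9 to 112 for each degree of freedom).

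Members and lists were chosen with earlier results of these data known. Named pathway genes are up to 4 per list and comparison with the smallest p among called genes at a mean log2 CPM of at least 1 (in part given as counts); likeness used a mean of at least 3. The 3' untranslated motif search was added after the data were seen. Not every matched site is reported here.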

Additional observations from a re-analysis of the deposited data

Results flagged for a closer look

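The effects of the 2 hairpins differed for 6 of the 10 genes by the direct test of shRela-2 against shRela-1 (edgeR, quasi-likelihood, adjusted over all genes). The difference, shRela-2 minus shRela-1 on the log2 scale, was 1.22 ± 0.047 for Ikbkb, 0.85 ± 0.071 for Traf6, 0.69 ± 0.12 for Malt1, 0.43 ± 0.050 for Bcl10, 0.34 ± 0.077 for Traf2 and -0.17 ± 0.033 for Map3k7 (± SE). The same test called 39.9% of all genes. In each of these 6 genes the 2 hairpin groups did not overlap, as in 50.1% of all genes. Groups of 3 are too small for a test of single outlying samples. By the chi-square between replicates, shScr replicate 2 stood apart from shScr replicates 1 and 3 (112 and 109 per degree of freedom).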

How the results depend on the processing

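Of 630 recomputed log2 fold changes of the 10 genes, 595 kept their side of the threshold, 20 lost and 15 gained a call, and no called value changed sign (uncalled values near 0 did, such as Ikbkg between the hairpins, from -0.09 to 0.06 with 1 sample left out); of 944 values for the named pathway genes, 897 kept their call and 0 changed sign. With shRela-2, 5 of the 10 genes were called by DESeq2 (4952 over all genes) and 6 with the replicate block (44.4% of all genes). The block called 9 of the 10 in the average of both hairpins (37.5% of all genes). It called 44 of the 69 other pathway genes with shRela-2. The share of Ikbkb with shRela-1 minus shScr was -15.4 percentage points per kilobase. Leaving out 1 sample gave 5 to 7 of the 10 genes called with shRela-1, 1 to 4 with shRela-2, 4 to 5 in the average and 6 between hairpins. Over all genes it gave 2745 to 3824, 3766 to 4757, 2329 to 3335 and 5280 to 6152 in the same comparisons. For other pathway genes it gave 15 to 21 (22 with all samples), 22 to 29 (29), 14 to 23 (25, the lowest without shScr replicate 2 or 3) and 22 to 27 (27) in the same comparisons, and an Ikbkb share difference of -13.8 to -13.1 points (shRela-1) and 0.706 to 2.04 points (shRela-2). Over all tested genes, 6034 were called with shRela-1 and the block (3799 without it), and 5763 in the average (3507 without it, 2329 without shScr replicate 3). With the block, 8 calls of the 10 genes were gained, as given above, and it changed no other call of theirs; the cause was not tested. In the role lists, counts also moved by over 1.5 times in comparisons given here only in sum. Malt1, at 200 to 361 counts per sample, has the widest intervals. The fit on only the groups compared gave no value for the average of both hairpins, which uses all 9 samples.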
